A study of Mus musculus with 12 samples.

Results

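The HoxA cluster of the mouse is described here through the mark H3K27me3, the trimethylation of lysine 27 on histone H3, in epithelium of the small intestine. The cluster was taken as the interval chr6:52111001-52215000 of mm9 (104 kb), which holds Hoxa2 at its low-coordinate end and Hoxa13 at its high-coordinate end. All islands of enrichment overlapping the interval were used. They numbered 20 of 81097 islands in the 8 deposited lists, which were 4, 4, 4 and 2 in the embryonic libraries (E12.5 replicates 1 and 2, then E14.5 replicates 1 and 2) and 1, 2, 1 and 2 in the adult libraries (ISC replicates 1 and 2, then AE replicates 1 and 2). The islands were taken by position and not by any value of the lists, although the interval was chosen with earlier results of these data known.

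The mice were of mixed C57BL/6 and CD1 background. E12.5 and E14.5 name the embryonic day at which EpCAM-positive epithelium was sorted from the small intestine. ISC stands for Lgr5-positive intestinal stem cells, sorted by high EGFP, and AE for enterocytes, both taken from males at postnatal day 60 that carried the Lgr5EGFP-Cre-ERT allele, in which the Lgr5 promoter drives EGFP. In every group CD31-positive and CD45-positive cells and dead cells were gated out, and 250000 cells were isolated per sample. For enterocytes the labels name EpCAM but no marker of the enterocyte itself, and neither the sex nor the number of embryos behind a library is given. Each population had 2 ChIP libraries, called biological duplicates by the submitters, and 1 input. The lists contain neither gene names nor RNA, so the sorted cell types could not be checked against markers.

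Hox genes encode homeodomain transcription factors that give cells their position along the head-to-tail axis. Their order on the chromosome follows the order in which they act along that axis, and Polycomb complexes keep the unused genes of a cluster silent, covering them with broad domains of H3K27me3. In the HoxA cluster, Hoxa2 patterns the hindbrain and branchial arches, Hoxa3 the thymus and parathyroid, and Hoxa5 the lung and trachea. Hoxa4, Hoxa6 and Hoxa7 act in the vertebral column, Hoxa9 is best known from blood progenitors, Hoxa10 and Hoxa11 act in the uterus and limb, and Hoxa13 in the hindgut, the genital tubercle and the digits. In the RefSeq gene table of another assembly (GRCm38.p6), all 10 members stood in this numerical order from low to high coordinates, and Mir196b, the gene of a microRNA known to target Hox transcripts, lay between Hoxa9 and Hoxa10. Since that assembly is not the one of the islands, no island was assigned to a single gene, and positions are given as the distance in kb from the Hoxa2-side end of the interval.

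RefSeq promoter sequences (250 bases before to 50 bases after the start, GRCm38.p6) were found for 9 of the 10 members. They are shown for both ends and the middle of the cluster, because dense CpG is the sequence feature that Polycomb domains are known for. No promoter was placed in an island or a gap, and a link between CpG and the islands was not tested. CpG dinucleotides are in capitals, and the strand printed is that of the gene.
Hoxa2 (GRCm38.p6, minus strand, chr6:52164782-52165081): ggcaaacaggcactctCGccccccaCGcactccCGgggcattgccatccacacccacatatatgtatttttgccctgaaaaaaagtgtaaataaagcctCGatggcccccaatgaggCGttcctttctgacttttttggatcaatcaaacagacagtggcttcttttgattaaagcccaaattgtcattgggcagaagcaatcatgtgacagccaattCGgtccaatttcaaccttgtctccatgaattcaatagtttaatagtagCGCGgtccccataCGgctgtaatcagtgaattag
Hoxa6 (GRCm38.p6, minus strand, chr6:52208623-52208922): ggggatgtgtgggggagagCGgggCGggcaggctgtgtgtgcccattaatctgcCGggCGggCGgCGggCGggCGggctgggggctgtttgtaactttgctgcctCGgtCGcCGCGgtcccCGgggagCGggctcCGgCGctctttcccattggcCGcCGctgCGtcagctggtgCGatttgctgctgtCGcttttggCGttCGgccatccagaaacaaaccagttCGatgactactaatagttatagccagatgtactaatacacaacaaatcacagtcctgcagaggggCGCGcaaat
Hoxa7 (GRCm38.p6, minus strand, chr6:52218524-52218823): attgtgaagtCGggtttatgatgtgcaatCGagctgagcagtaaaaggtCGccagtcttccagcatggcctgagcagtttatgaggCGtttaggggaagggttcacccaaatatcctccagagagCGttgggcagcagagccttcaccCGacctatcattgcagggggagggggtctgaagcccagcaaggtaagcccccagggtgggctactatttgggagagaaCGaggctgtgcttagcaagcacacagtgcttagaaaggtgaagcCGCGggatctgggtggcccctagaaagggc
Hoxa13 (GRCm38.p6, minus strand, chr6:52260831-52261130): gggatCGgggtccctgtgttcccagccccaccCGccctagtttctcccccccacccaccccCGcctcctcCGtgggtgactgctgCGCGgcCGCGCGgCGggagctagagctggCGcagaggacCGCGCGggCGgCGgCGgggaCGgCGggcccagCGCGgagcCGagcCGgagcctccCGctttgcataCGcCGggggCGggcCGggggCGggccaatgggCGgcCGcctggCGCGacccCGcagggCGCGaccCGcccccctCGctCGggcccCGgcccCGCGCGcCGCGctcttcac
These 4 promoters held 9, 26, 9 and 45 CpG in the order printed, against a median of 7 over the 32851 promoters of the table. As many CpG as in Hoxa13 were found in 1.93% of all promoters, as many as in Hoxa6 in 16.9%, and as many as in Hoxa2 or Hoxa7 in 45.8%. The motif searched was CG, which reads the same on both strands and was present at least once in 94.6% of promoters. Over the 10 promoters of members (Hoxa10 has 2), counts ran from 4 in Hoxa9 to 45 in Hoxa13, and 6 of 10 had a GC content of 50% or more together with an observed-to-expected CpG ratio of 0.6 or more, against 33.5% of all promoters. The mature microRNA between Hoxa9 and Hoxa10 follows, with its seed (bases 2 to 8) in capitals.
mmu-miR-196b-5p: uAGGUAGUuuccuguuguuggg

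In all 4 populations most of the cluster lay inside H3K27me3 islands, and the adult libraries covered it nearly without a break. E12.5 libraries covered 68.8% and 71.3% of the interval, E14.5 libraries 90.4% and 92.7%, ISC libraries 100% and 98.8%, and AE libraries 100% and 98.7%. The 4 adult values all lay above the 4 embryonic ones, and the E14.5 values above the E12.5 ones, by more than the replicates of a population differed. Adult libraries covered 99.4 ± 0.726% and embryonic libraries 80.8 ± 12.46% (SD, n = 4 each), a difference of 18.6 percentage points (exact two-sided permutation test over libraries, p = 0.0286, the smallest that 4 against 4 allows; Benjamini-Hochberg adjusted over the 8 measures compared, 0.0457). The test treats each library as a unit, duplicates included, so its p does not extend to populations. Without both E12.5 libraries the difference was 7.84 points, so most of the difference rests on E12.5. The exact permutation p was then 0.0667, the smallest that 4 against 2 allows, so no call was possible there. The call was lost without any 1 of the 4 adult libraries, ISC replicate 1 or 2 or AE replicate 1 or 2 (18.3 to 18.8 points, exact permutation p = 0.0857), although the remaining adult values all lay above the embryonic ones.

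**Figure D1:**
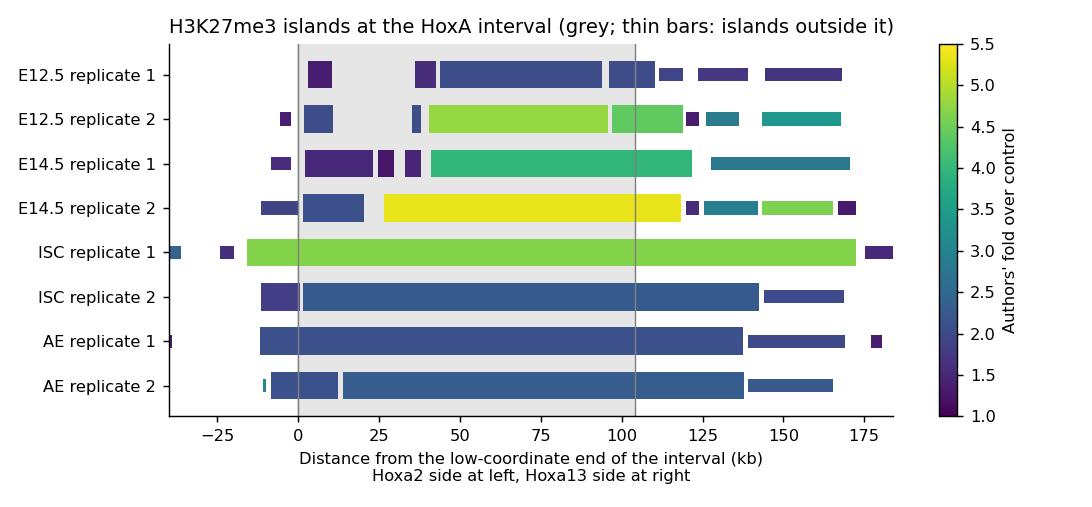
Islands of the 8 lists at the HoxA interval, placed by distance in kb from its Hoxa2-side end and coloured by the authors' fold over control; thick bars overlap the interval (grey) and thin bars lie outside it. Adult islands span the interval with at most 1 short break, while both E12.5 lists leave 24.4 kb open on the Hoxa2 side.

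Within each list the interval stood among the most completely covered stretches of the genome. The genome was divided into tiles of 104 kb, of which 12975 held a call in at least 1 list. A share as high as that of HoxA was reached by 9 and 19 tiles in the E12.5 lists, 13 and 17 in the E14.5 lists, 9 and 2 in the ISC lists, and 2 and 1 in the AE lists. The tiles were cut on a fixed grid that can split a domain, while the interval was set on the cluster, so the frames are not alike. The lists differed in extent, from 60.8 Mb in ISC replicate 2 to 241 Mb in ISC replicate 1. The shortest list of all, ISC replicate 2, covered 98.8% of the cluster, and E14.5 replicate 2, with 109 Mb, covered 92.7%. With every list cut to the length of the shortest, the adult minus embryonic difference was 19.8 points (exact permutation p = 0.0286).

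Within the interval, the difference between ages lay in its Hoxa2-side part. The interval was divided into 4 equal segments of 26 kb, numbered from the Hoxa2 side. Segment 1 was covered to 28.5% and 34.6% in the E12.5 lists, 86.2% and 72.3% in the E14.5 lists, 100% and 95.4% in the ISC lists, and 100% and 94.6% in the AE lists. Every adult value exceeded every embryonic one, with means of 97.5 ± 2.90% in adult and 55.4 ± 28.2% in embryonic libraries (SD, n = 4 each; exact permutation p = 0.0286, adjusted 0.0457). Segment 2 was covered to 56.2% and 55.4% in E12.5, 75.4% and 98.5% in E14.5, and 100% in each adult library. Here too the groups did not overlap, with means of 100% in adult and 71.3 ± 20.3% in embryonic libraries (exact permutation p = 0.0286, n = 4 each, adjusted 0.0457). Without any 1 adult library the p of both segments was 0.0571 by the same exact permutation. Segment 3 was covered to 100% in all 8 libraries. Segment 4, at Hoxa13, was covered to 90.8% and 95.4% in E12.5 and to 100% in the other libraries, a difference that did not pass (exact permutation p = 0.429, adjusted 0.490). These places depend on the limits of the interval. With 20 kb added on each side, segment 4 differed by 10.1 points (exact permutation p = 0.0286) and segment 1 by 30.7 points (exact permutation p = 0.0571), and with 10 kb removed on each side segment 2 differed by 21.4 points (exact permutation p = 0.143). In the 20 kb beyond the Hoxa13-side end, adult libraries were covered to 100% each and embryonic libraries to 71.0% to 94.0%.

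**Figure D2:**
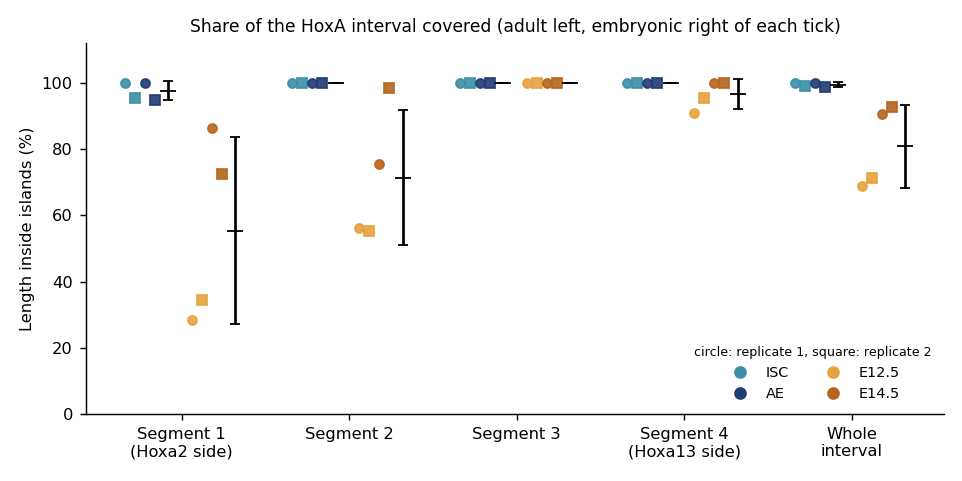
Share of each segment of the interval, and of the whole interval, inside islands, by library (circles replicate 1, squares replicate 2); black marks are the mean and SD of the 4 adult (left) and 4 embryonic (right) libraries. Adult libraries lie between 94.6% and 100% in every segment, and the embryonic values are spread most widely in segment 1, from 28.5% to 86.2%.

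A block reaching from the middle of the cluster toward Hoxa13 was constant. Of the 520 windows of 200 bp in the interval, 339 (65.2%, or 67.8 kb) were called in all 8 libraries, against 2.96% of the 1860461 windows called anywhere in the genome. The longest constant stretch ran from 43.8 to 93.8 kb (52154801 to 52204800), and its borders are those of a single E12.5 replicate 1 island. A second constant stretch of 7.4 kb stood apart at the Hoxa2 end, from 3 to 10.4 kb (52114001 to 52121400), and another of 7.0 kb reached the Hoxa13-side end of the interval. No window was called in every embryonic library and missed in any adult one, where 2.03% of windows in the genome behaved so. Such a window could be counted only in 1.2 kb missed by ISC replicate 2 and 1.4 kb missed by AE replicate 2. Its absence was thus largely fixed by the nearly full adult cover. In the other direction, 168 windows (33.6 kb, 32.3%) were called in every adult library and missed in at least 1 embryonic library, against 3.97% over the genome. Only 10 windows (2.0 kb) were called in every adult and no embryonic library (3.2 to 6.4 kb without ISC replicate 2, E14.5 replicate 2 or E14.5 replicate 1), which is 1.92% of the interval against 1.2% over the genome, and none was called in every embryonic and no adult library (0.38% over the genome). A window of that last kind could not occur, since ISC replicate 1 and AE replicate 1 covered the whole interval.

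**Figure D3:**
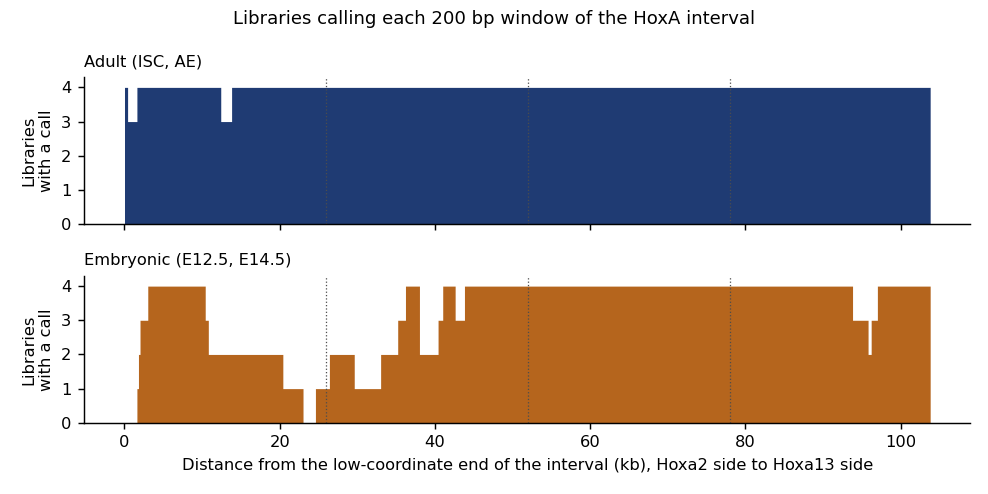
Number of libraries that call each 200 bp window along the interval, adult (ISC, AE; upper panel) and embryonic (E12.5, E14.5; lower panel), with dotted lines between segments. The adult count drops below 4 at 2 short breaks, and the embryonic count drops to 0 at 23 to 24.6 kb and at the start of the interval.

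The largest opening was an E12.5 one. Neither E12.5 library called the 24.4 kb from 10.8 to 35.2 kb (52121801 to 52146200), which separates the small constant stretch at the Hoxa2 end from the main block. Of this opening, E14.5 libraries covered 19.4 and 18.4 kb, ISC libraries 24.4 kb each, and AE libraries 24.4 and 23 kb. The islands nearest the opening on either side had folds over control of 1.36 and 1.56 in E12.5 replicate 1 and 2.02 and 2.06 in E12.5 replicate 2. The main islands, farther toward Hoxa13, had 2.04 and 4.78. The part of enrichment or depth in the opening was not tested. Reads outside islands are not listed, so a level of the mark too low for a call cannot be told from its absence there.

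From E12.5 to E14.5, 15.4 kb of the interval were gained, that is called in both E14.5 and neither E12.5 library, and no length was lost (0.6 kb without E14.5 replicate 2). This is 14.8% of the interval, where 4.84% of the windows called in the genome were gained and 0.687% lost. A loss could be counted only in the 3.2 kb that neither E14.5 library called. The longest gained stretches were 9.6 kb at 10.8 to 20.4 kb (52121801 to 52131400), 3.2 kb at 26.4 to 29.6 kb (52137401 to 52140600) and 2.2 kb at 33 to 35.2 kb (52144001 to 52146200). These 3 lay inside the E12.5 opening. It holds nearly all of the length that neither E12.5 library called, so their place was largely fixed by the rule. At E14.5 this side was still broken, at partly shared places. E14.5 replicate 1 had gaps of 1.6 kb, 3.4 kb (52140601 to 52144000) and 3.0 kb (52149001 to 52152000), and E14.5 replicate 2 had 1 gap of 6.0 kb (52131401 to 52137400), beside the uncalled first 2.0 and 1.6 kb of the interval. With 2 libraries against 2 no p below 0.33 can be had, so the steps are described without a test.

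From E14.5 to stem cells 2.0 kb (1.92% of the interval) were gained and none lost, against 4.84% of windows gained and 3.36% lost over the genome. No loss could be counted here, because ISC replicate 1 covered the whole interval. A gain could be counted only in the 3.2 kb that neither E14.5 library called, so a share of 4.84% was out of reach. The gain was 6.4 kb without E14.5 replicate 1, 8.8 kb without E14.5 replicate 2, 3.2 kb without ISC replicate 2 and 0 kb with gaps of 3 kb or less filled. Of the 2.0 kb, 1.6 kb lay at 23 to 24.6 kb (52134001 to 52135600), where the gaps of the 2 E14.5 libraries coincide, and 0.4 kb at the very start of the interval. From stem cells to enterocytes nothing was gained and nothing lost (1.2 kb gained without ISC replicate 1, 1.4 kb lost without AE replicate 1), against 0.705% and 3.20% of windows over the genome. Neither could be counted by this rule, since ISC replicate 1 and AE replicate 1 each covered the whole interval. The step therefore cannot be read as stable. The breaks in adult libraries were 1.2 kb at the Hoxa2-side end in ISC replicate 2 (52111401 to 52112600) and 1.4 kb in AE replicate 2 (52123401 to 52124800).

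Where the Hoxa2 side was called in the embryonic lists, its islands had lower folds over control than the main island, by more than counting error. The fold over control is the authors' ratio of ChIP to input reads after scaling, and it is compared here only within a list. In E12.5 replicate 1 the main island had a fold of 2.04 (1483 ChIP and 1248 control reads), and the 2 islands on its Hoxa2 side had 1.36 and 1.56. In E12.5 replicate 2 the main island had 4.78 (4038 and 1347 reads), and the 2 on its Hoxa2 side had 2.02 and 2.06. In E14.5 replicate 1 the main island had 3.96 (8163 and 2214 reads), and the 3 islands on the Hoxa2 side had 1.52, 1.28 and 1.46. In E14.5 replicate 2 the main island had 5.34 (7592 and 2488 reads), and the single Hoxa2-side island had 2.10. The main island exceeded the pooled Hoxa2-side islands by 1.41 times (95% interval 1.18 to 1.70) and 2.35 times (1.99 to 2.79) in the E12.5 lists, and by 2.69 times (2.42 to 2.97) and 2.54 times (2.24 to 2.87) in the E14.5 lists. These intervals are normal approximations on the log ratio and cover counting error only. The main island is the longest of its list over the interval, and the intervals do not allow for that choice.

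In the adult lists few values along the cluster can be had. ISC replicate 1 and AE replicate 1 each covered it with a single island, of 188.4 kb with a fold of 4.66 and of 149.4 kb with a fold of 2.11, so no fold along the cluster can be had from them. In AE replicate 2 the main island of 124.0 kb had a fold of 2.31 and the Hoxa2-side island of 20.8 kb had 2.12, a ratio of 1.09 (95% interval 0.960 to 1.23). In ISC replicate 2 the main island of 141.0 kb had a fold of 2.26 and the Hoxa2-side island had 1.81, a ratio of 1.25 (1.07 to 1.46), but 0.4 kb of that island's 12 kb lay inside the interval. The ratios of these 2 adult lists lay below the 4 embryonic ones, but the interval of ISC replicate 2 lies above 1 and overlaps that of E12.5 replicate 1. The difference between ages was not tested, because the adult islands are longer and were split at other places. On the Hoxa13 side, 2 lists had another island over the interval: in E12.5 the main island exceeded it by 1.00 times (0.844 to 1.19) in replicate 1 and by 1.09 times (0.960 to 1.23) in replicate 2. Farther out, in the 80 kb beyond the interval, the next islands had folds of 1.92, 1.72 and 1.70 in E12.5 replicate 1, and of 1.37, 2.88 and 3.39 in E12.5 replicate 2. In E14.5 they had 2.80 in replicate 1 and 1.59, 2.90, 4.62 and 1.32 in replicate 2. Lower folds than in the main island were thus listed on both sides of it.

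**Figure D4:**
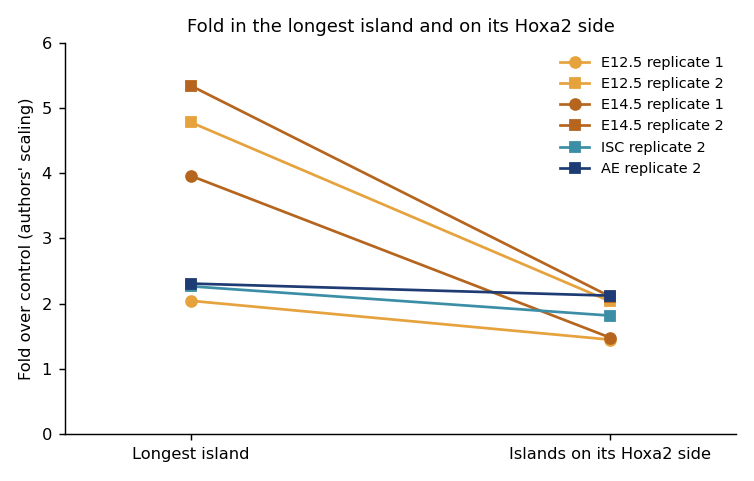
Fold over control, on the authors' scaling, of the longest island and of the pooled islands on its Hoxa2 side in the 6 lists that hold both (lines join values of a list). In E12.5 replicate 2 and both E14.5 libraries the longest island lies between 3.96 and 5.34 and the Hoxa2-side islands between 1.47 and 2.10. In E12.5 replicate 1 the values are 2.04 and 1.45, in ISC replicate 2 they are 2.26 and 1.81, and in AE replicate 2 they are 2.31 and 2.12.

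The island over HoxA was among the longest of its list and among those with the most ChIP reads, and it stood lower by fold. By number of ChIP reads the main island ranked 14th and 10th in the E12.5 lists, 8th in each E14.5 list, and 4th in each of the 4 adult lists. By length it ranked 9th and 21st in E12.5, 11th and 13th in E14.5, 4th and 1st in ISC, and 2nd and 1st in AE. By fold it ranked 138th and 39th in E12.5, 48th and 60th in E14.5, 13th and 102nd in ISC, and 626th and 545th in AE. Its fold exceeded that of 97.8% and 99.7% of islands in the E12.5 lists, 99.4% in each E14.5 list, 99.9% and 98.5% in the ISC lists, and 92.4% and 95.4% in the AE lists. The lists differ in length, so these ranks show no change between populations. The ratio of ChIP to control reads as deposited, pooled over the islands of the interval, was 1.13 and 2.72 in the E12.5 lists, 3.07 and 2.73 in the E14.5 lists, 3.65 and 1.60 in the ISC lists, and 3.07 and 1.97 in the AE lists. Divided by the constant of each list, which carries the relative depth of ChIP and input, this gave folds of 1.94 and 4.33, 3.30 and 4.78, 4.66 and 2.22, and 2.11 and 2.28 in the same order. The replicates of E12.5, and those of ISC, differed by over 2 times, so no order of the populations by fold can be read from these values.

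Counted over the islands that overlap the interval, both ends lay farther out in the adult lists. On the Hoxa2 side the first island began 3.0 and 1.8 kb inside the interval in E12.5 and 2.0 and 1.6 kb inside it in E14.5, but 16.0 and 11.6 kb before its start in ISC and 11.8 and 8.4 kb before it in AE. Adult borders lay on average 14.1 kb farther out (exact permutation p = 0.0286, adjusted 0.0457; n = 4 each). On the Hoxa13 side the last island ended 6.2 and 14.8 kb beyond the interval in the E12.5 lists, 17.8 and 14.2 kb in the E14.5 lists, 68.4 and 38.6 kb in stem cells, and 33.6 and 33.8 kb in enterocytes, a mean difference of 30.4 kb (exact permutation p = 0.0286, adjusted 0.0457; n = 4 each). These are the ends of islands, not of the mark. Beyond the Hoxa13-side end the next island followed after 1.2 and 1.2 kb in E12.5, after 5.8 and 1.6 kb in E14.5, after 2.8 and 1.4 kb in ISC and after 1.4 and 1.2 kb in AE. On the Hoxa2 side an island of E14.5 replicate 2 ended exactly where the interval starts, so it was not counted. The ISC replicate 2 border rests on an island with 0.4 kb inside the interval. Both of these islands began at -11.6 kb from the interval start. With gaps of 3 kb or less filled, the border differences were 11.4 kb on the Hoxa2 side and 35.1 kb on the Hoxa13 side (exact permutation p = 0.0857 and 0.114; n = 4 each), and the groups overlapped through E14.5 replicate 2, whose borders then lay 11.6 and 68.6 kb beyond the interval. The Hoxa2-side borders of the other 3 embryonic libraries did not move. On that side the next island lay 560.8 and 4.0 kb farther out in E12.5, and 4.2 kb in E14.5 replicate 1. In the adult lists it lay 3.8 and 83.4 kb farther out in ISC, and 27.2 and 1.6 kb in AE. The next islands of E12.5 replicate 2 and E14.5 replicate 1 began at -5.6 and -8.6 kb from the interval start. The border of AE replicate 2 lay at -8.4 kb. The number of islands over the interval, 1.5 ± 0.577 in adult and 3.5 ± 1.00 in embryonic libraries (SD, n = 4 each), did not pass (exact permutation p = 0.0857, adjusted 0.114).

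The rise of coverage at HoxA was not the highest among domains of this kind. Of the 12975 tiles with a call, 4.95% had a share that was higher in every adult than in every embryonic library, as HoxA had, and 1.87% the opposite. Of the 115 tiles covered to 50% or more on average, 2 of which overlap the cluster itself, 9.57% (11 tiles) and 1.74% did so. The adult minus embryonic difference of 18.6 points at HoxA stood beside a median of 8.51 points over these tiles (quartiles -1.75 and 21.4), and 32 of the 115 had a difference at least as high.

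**Figure D5:**
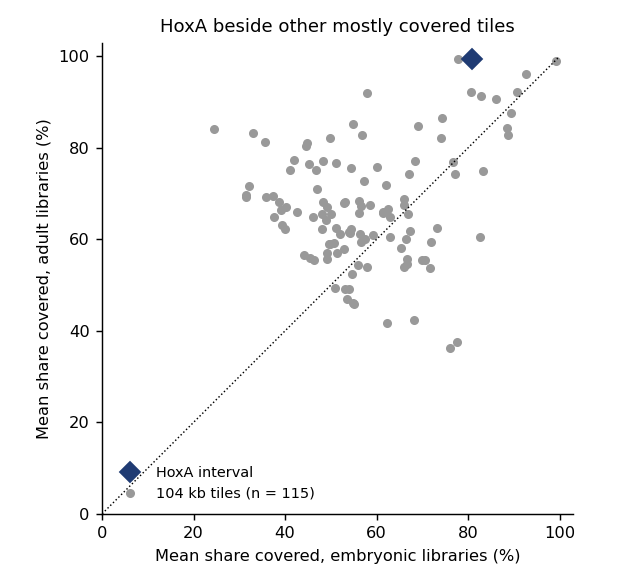
Mean share covered in the 4 adult against the 4 embryonic libraries (percent) for the HoxA interval (diamond) and the 115 tiles of 104 kb covered to 50% or more on average; the dotted line marks equal shares. HoxA lies at 99.4% in adult and 80.8% in embryonic libraries, and 32 tiles lie at least as far above the line.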

How the data were processed

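H3K27me3 ChIP was measured in 8 libraries (2 each of E12.5, E14.5, ISC and AE). The submitters' processing notes name SICER 1.1, SAMtools 1.2, Bowtie 1.1.2 and bcl2fastq 1.8.4, and build mm9. Each deposited list gives, read from its values because it has no header, island borders on a 200 bp grid, ChIP and control read counts (deposited as whole numbers, not normalized), the authors' p-value and FDR (at most 0.01), and the authors' fold, a ratio scaled by library size. Reads outside islands are not listed, so total depth is unknown and no count model was run. ChIP reads inside islands numbered 1171968 to 6627853 per library. Replicates share 1 input, since control counts were identical in all intervals that both lists of a population hold, and replicate 1 was 0.928, 1.63, 1.09 and 1.68 times as deep as replicate 2 in E12.5, E14.5, ISC and AE.

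Islands were clipped to the interval and painted on the grid with Python 3.11.15 and numpy 2.4.6, and coordinates were made 1-based. Adult and embryonic libraries were compared by exact permutation (two-sided, all 70 splits) for 8 measures (whole interval, 4 segments, number of islands, both borders) with Benjamini-Hochberg adjustment. The functions were tested on simulated data. Stretches named are the longest in all libraries, gaps of 2 kb or more and the 3 longest that differ at a step; other gaps were named after their values were seen. Islands overlapping the interval, the interval itself and these measures were chosen with earlier results of these data known. Alternatives were an FDR of 1e-10 or less, a fold of 1.5 or more, equal covered length (islands by lowest p-value, then highest fold), filled gaps, other interval limits, each library left out and a replicate block. Gene-level values were not computed, because no annotation of mm9 was used here.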

Additional observations from a re-analysis of the deposited data

Results flagged for a closer look

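With 4 libraries of an age as a set, 14 sets were examined for a single value far from the others, where chance flags about 1 in 20, and 3 stood out. ISC replicate 1 stood apart among the adult libraries in its Hoxa13-side border, 68.4 kb beyond the interval against 33.6 to 38.6 kb in the others, and in its fold over control pooled over the interval, 4.66 against 2.11 to 2.28, each scaled to its own population's input. Its list covered 241 Mb, against 60.8 to 91.0 Mb in the other adult lists; the part of this in the border and the fold was not tested. E14.5 replicate 2 had 2 islands over the interval, while the other embryonic libraries had 4 each. With 3 equal counts any other count is flagged, so the rate of 1 in 20 does not hold for this set.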

How the results depend on the processing

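The difference in share of the interval stayed positive in each of the 17 alternatives run, between 7.84 and 24.95 points. It was 18.3 to 18.8 points without an ISC or AE library (exact permutation p = 0.0857) and 14.6 to 22.5 points over all libraries left out in turn. Without 1 library segment 1 differed by 33.1 to 52.4 points and segment 2 by 23.3 to 37.7 points, and the number of islands by -2.50 to -1.83; without an adult library the p of these segments was 0.0571. With the replicate number as a block, the smallest p possible is 0.0556, and the whole interval (18.6 points), segments 1 and 2 (42.1 and 28.7 points) and the borders (14.1 and 30.4 kb) all had that value; the labels do not tie equal numbers together, and differences between replicates correlated at -0.302 to 0.203 between populations, so no pairing was assumed. With the interval widened by 20 kb on each side, segment 1 differed by 30.7 points (exact permutation p = 0.0571), segment 4 by 10.1 points and the number of islands by -3.25 (p = 0.0286 each, exact permutation). With it narrowed by 10 kb segment 2 differed by 21.4 points (exact permutation p = 0.143). Gaps of 3 kb or less filled, a setting chosen after seeing the data like the omission of E12.5, gave -1 island (exact permutation p = 0.0286) and border differences of 11.4 and 35.1 kb. Filling gaps of 1 kb changed nothing, since none was that short.

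The length called in all libraries stayed between 57.0 and 77.4 kb, and the length called in embryonic libraries alone at 0 kb. That 0 kb was fixed by the full cover in ISC replicate 1 and AE replicate 1. The gain to E14.5 was 10.0 kb with an FDR of 1e-10 or less or a fold of 1.5 or more, and 23.4 kb when either library sufficed. The length in adult libraries alone and the gain from E14.5 to ISC were each 3.8 kb with that FDR, that fold and equal covered length, 3.20 kb when either library sufficed and 0 kb with 3 kb gaps filled. Without 1 library they ran from 2.0 to 6.40 kb and from 2.0 to 8.80 kb, the loss to E14.5 from 0 to 0.6 kb, the gain to AE from 0 to 1.2 kb and the loss to AE from 0 to 1.40 kb. Folds of the interval moved by less than the replicate spread in both alternatives. What limits all of these is that a list holds calls only.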

Other observations

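Beyond the Hoxa13-side end of the interval the mark went on in every library. From 40 to 60 kb above the end (52255001 to 52275000), the libraries of E12.5 were covered to 98.0% and 100%, and those of E14.5, ISC and AE to 100% each. From 20 to 40 kb above it, E12.5 was covered to 76.0% and 53.0%, E14.5 to 82.0% and 87.0%, stem cells to 100% and 93.0%, and enterocytes to 93.0% and 94.0%. In the 20 kb before the Hoxa2-side end the libraries differed more, with 0% and 17.0% in the E12.5 lists, 32.0% and 58.0% in the E14.5 lists, 81.0% and 58.0% in stem cells, and 59.0% and 47.0% in enterocytes. There the adult and E14.5 values overlap.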
